A study of Mus musculus with 82 samples.

Results

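Mouse embryonic fibroblasts (MEFs) with neither catalytic α subunit of the energy sensor AMPK (AMP-activated protein kinase) were compared with control MEFs under vehicle. The comparison holds 8 of the 82 arrays of the study: 4 arrays of AMPK α1-/-/α2-/- cells (dKO) and 4 of control cells (WT), chosen by their labels alone. Both groups were of C57BL/6 background, grew in the same medium with serum and received DMSO for 4 h, and none of these 8 samples saw a compound. The arrays of a group are technical replicates of 1 cell population per genotype, and the labels name neither the embryos, the number of lines nor how the cells were immortalised, if they were. The p-values below therefore measure technical spread only, and a difference between the genotypes cannot be told apart from a difference between these particular cell populations. Labels place the remaining arrays in MEFs given the AMPK activators 991 (10 µM) or AICAR (2 mM) and in primary hepatocytes, also dKO or WT. Whether both cell types carry the same deleted alleles was not looked at. The values are log2 intensities of Affymetrix probe sets, and a difference of 1 on this scale is a 2-fold difference in signal.

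AMPK is a heterotrimer of a catalytic α, a scaffolding β and a nucleotide-binding γ subunit that is switched on when AMP or ADP rises. LKB1 or CaMKK2 phosphorylates the α subunit, and the active kinase turns down lipid and protein synthesis and turns up glucose uptake, fatty acid oxidation, autophagy and lysosome formation. Cells without either α subunit have no AMPK activity, and MEFs of this kind are widely used as the negative control for AMPK-directed compounds.

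The vehicle arrays were alike in distribution, with medians of 6.2 to 6.246, and each correlated with the rest of its group at r = 0.9986 to 0.9993 across genes. Of 18194 genes tested, 17404 lie on the 19 autosomes and are described here. The median spread between arrays of a group was 0.08 (SD, log2, n = 4 arrays), against a median absolute genotype difference of 0.14. The difference of the median gene was 0.00.

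At an adjusted p under 0.05 (limma, Benjamini-Hochberg over all genes), 4964 genes were higher in dKO cells, 28.5% of those tested, and 3337 were lower, 19.2%. With calls for 47.7% of genes, a call alone says little about any one gene. Among the 8806 autosomal genes no dimmer than the median gene, 42.5% were higher and 29.8% lower. Counts in lists of mostly bright genes are to be read against these shares. A fold limit separated the larger differences: 1369 genes (7.87%) were at least 1.5-fold higher and 713 (4.1%) at least 1.5-fold lower. The balance turned at large sizes. At 2-fold or more 561 genes were higher and 368 lower, at 8-fold or more 40 were higher and 71 lower, and at 32-fold or more 4 were higher and 8 lower.

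**Figure D1:**
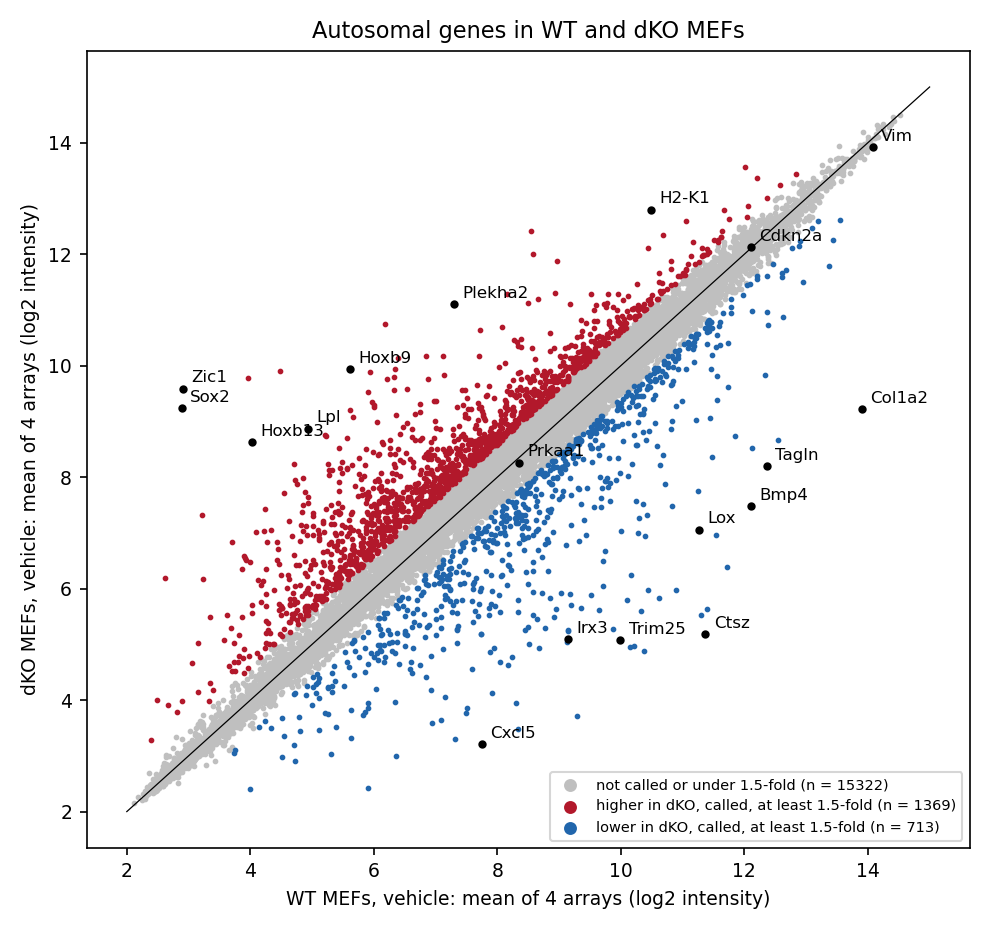
Mean log2 intensity over the 4 dKO arrays against the mean over the 4 WT arrays for each autosomal gene under vehicle, with called genes of at least 1.5-fold in colour and a line of equality. Zic1 and Sox2 lie far above the line, Ctsz and Col1a2 far below it, and Prkaa1, Cdkn2a and Vim close to it.

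The targeted transcripts were looked at first. Prkaa1, which encodes AMPKα1, read 8.45, 8.45, 8.17 and 8.34 on the WT arrays and 8.35, 8.27, 8.17 and 8.25 on the dKO arrays. The groups overlapped, with a difference of -0.09 ± 0.10 (SE, adjusted p = 0.514, limma). Prkaa2, which encodes AMPKα2, read 6.33, 6.30, 6.15 and 6.06 in WT and 6.00, 5.89, 5.89 and 5.76 in dKO cells. It was lower in dKO by a small amount without overlap (-0.32 ± 0.08, adjusted p = 0.00116), and its 3 probe sets differed by -0.35 to -0.15. In hepatocytes the Prkaa1 probe set stood at 5.54 and 5.72 in the WT preparations and at 4.46 and 4.59 in the dKO preparations, a difference of -1.11 (unadjusted p = 3.03e-05, adjusted p = 0.184, limma, n = 2 preparations). The sources used here do not say whether these probe sets lie in the deleted parts, so they do not check the labels of the MEFs.

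Of 12 other genes of the AMPK complex and its upstream kinases, 6 were higher and 1 lower, with a median difference of 0.10, and none reached 1.5-fold. Among all genes at the median level or brighter, 42.5% were higher and 29.8% lower. Prkag1, the widely expressed γ1 subunit, read 10.85, 10.88, 10.86 and 10.85 in WT and 11.26, 11.23, 11.29 and 11.24 in dKO cells. These 8 values did not overlap, and the difference was 0.40 ± 0.03 (adjusted p = 8.72e-13). Prkag3, the muscle γ3 subunit, was dim, at a mean of 4.49 in WT and 4.97 in dKO. Prkag2 was higher by 0.43 on the probe set used, but 1 of its 4 probe sets went the other way (-0.42). Cab39l, which encodes the MO25β partner of LKB1, was lower by 0.55 on the log2 scale (fell by 0.55, adjusted p = 1.73e-12).

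Among 13 AMPK-related kinases, most of which LKB1 also activates, 5 were higher and 4 lower. Of the 13, 12 lay at the median level or brighter, where 42.5% of all genes were higher and 29.8% lower. Sik2, a salt-inducible kinase, stood at 9.02, 9.14, 9.04 and 9.18 in WT and at 8.08, 8.13, 8.26 and 8.09 in dKO cells, a difference of -0.95 ± 0.05 (adjusted p = 5.78e-16). Nuak1 was lower (-0.52) and Nuak2 higher (0.65). Of 25 genes whose proteins AMPK phosphorylates, 10 were higher and 4 lower (median 0.10), and none reached 1.5-fold. Most of the 25 (19) lay at the median level or brighter too. The largest were Srebf2, the sterol-regulatory transcription factor (0.54), Becn1, an autophagy initiator (0.53), Zfp36l1, an mRNA decay factor (0.53), and Hdac5, a class IIa histone deacetylase (0.50).

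The folliculin complex and the MiT/TFE factors link AMPK to lysosome genes. Of 15 measured genes, 3 were higher and 9 lower, with a median of -0.09. Of all autosomal genes 28.5% were higher and 19.2% lower. For genes at the median level or brighter, as 11 of the 15 were, the shares were 42.5% and 29.8%. Rragd, the RagD GTPase that carries TFEB to the lysosome, was the exception in size. It read 5.01, 4.99, 4.68 and 4.85 in WT and 7.74, 7.74, 7.79 and 7.64 in dKO cells, a difference of 2.84 ± 0.09 (adjusted p = 5.83e-23), while 1 of its 3 probe sets did not move (-0.07). In hepatocytes the same Rragd probe set went the other way (-0.89, unadjusted p = 0.0036, adjusted p = 0.935, limma). Fnip2 and Fnip1, partners of folliculin, were lower by a fitted -0.62 and -0.46.

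The 24 genes below are the 12 most raised and the 12 most lowered among called genes whose mean was no lower than the median level (7.08), with no overlap between the groups, as seen in 27.2% of all genes upward and 19% downward. The size and the separation chose them and are a description. Plekha2, which encodes a phosphoinositide-binding adaptor, read 7.30, 7.28, 7.38 and 7.23 in WT and 11.09, 11.10, 11.09 and 11.15 in dKO cells. Arap2, a GTPase-activating protein for Arf6, read 6.35, 6.40, 6.48 and 6.32 against 10.17, 10.01, 10.14 and 10.18. Ptgis, prostacyclin synthase, read 5.35, 5.89, 5.85 and 5.40 against 9.19, 9.27, 9.25 and 9.10. The dKO arrays of these 3 genes lay close together, and the WT arrays read near or below the median level of all genes. Of the 24 genes 16 had several probe sets, all with 1 sign, but in 4 of them the smallest difference was under 1 in size: Arap2 (0.35 to 3.74), Psmb8 (0.44 to 3.60), Parvb (0.97 to 3.56) and Rspo2 (-5.76 to -0.40).

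Parvb, which encodes the integrin-linked adaptor β-parvin, was 11.8-fold higher in dKO cells, Pcp4l1 12.2-fold, Foxf1, a forkhead factor of visceral mesoderm, 11.1-fold and Syt13, a synaptotagmin, 10.7-fold. The other five of the raised set are Ifi202b, Ildr2, Hoxb9, Ckb and Psmb8, with differences of 5.43, 4.58, 4.32, 3.86 and 3.60. Ifi202b belongs to a family of near-identical genes, so its probe set may read more than 1 of them.

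On the other side, S1pr3, a receptor for sphingosine 1-phosphate, read 10.17, 10.31, 10.20 and 10.14 in WT and 5.05, 4.95, 5.04 and 4.83 in dKO cells. Rcan2, a calcineurin regulator, read 10.15, 10.25, 10.12 and 10.10 against 5.04, 5.08, 5.13 and 4.56. Trim25, the ubiquitin ligase that acts on the RNA sensor RIG-I, read 9.95, 10.04, 9.93 and 10.03 against 5.27, 4.81, 5.26 and 4.96. In dKO cells all 3 stood well under the median level of all genes. The values used here carry no detection calls, so a fold against such a dim level is a size on this scale only. Cyba, the p22phox subunit of NADPH oxidases, was 27.3-fold lower, Fgf7, keratinocyte growth factor, 30.5-fold and Cbr2, a carbonyl reductase, 26.7-fold. Col1a2, a chain of type I collagen, went from a mean of 13.90 to 9.22. Ctsz, Lhx9, Rspo2, Hoxd13 and Sfrp2 complete the lowered set, with differences of -6.19, -5.78, -5.76, -5.49 and -5.32.

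The 991 and AICAR arrays gave the same contrast again from the same 2 populations. Their genotype differences did not choose the 24 genes. However, all 23 MEF arrays set the probe set of each gene and the spread behind the calls. All 24 genes were called the same way under both compounds. The differences moved by at most 0.48 under 991 and 0.77 under AICAR, against a smallest difference of 3.42 under vehicle. Over the 2082 genes called with at least 1.5-fold under vehicle, 2047 (98.3%) were called the same way under both compounds, where 49.8% of all genes were called with 991 (28.6% higher, 21.2% lower) and 46.6% with AICAR (26.4% and 20.3%). Only 1 was called the opposite way with 991 and 5 with AICAR. These arrays share the cells of the vehicle arrays, so they repeat the measurement and not the populations.

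The dKO and WT hepatocytes did not show these differences. No gene was called there (791 of 17404, 4.54%, at an unadjusted p under 0.05, limma, n = 2 preparations per genotype), and the largest of the 24 differences was -0.71, for Ifi202b. Without either WT preparation 3 genes were called, without dKO preparation 1 there were 4 and without dKO preparation 2 there were 14, the lone preparation being assumed to vary like the other genotype. Some of the genes were dim in hepatocytes: Syt13 stood at 4.66 to 4.70 and Lhx9 at 3.72 to 3.85 over the 4 preparations. Others were expressed and level. Trim25 read 11.07 and 11.36 in WT and 11.34 and 11.33 in dKO preparations, and Arap2 8.95 and 9.08 against 9.19 and 9.14. Of the 2082 genes, hepatocyte preparations separated the same way for 19% and the opposite way for 16.7%, where 16.9% of all genes separated upward and 15.5% downward.

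**Figure D2:**
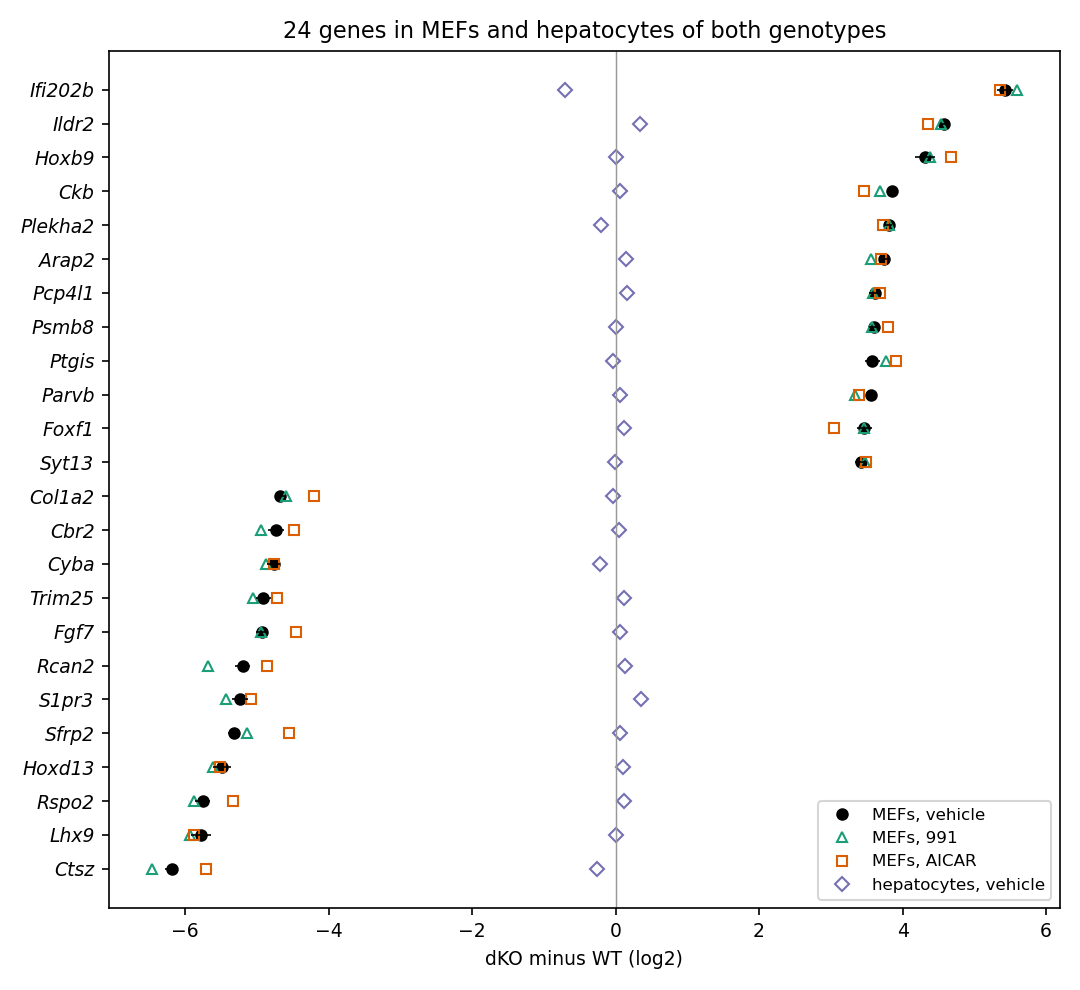
Genotype difference (dKO minus WT, log2) of the 24 genes in MEFs with vehicle (with SE), 991 and AICAR, and in hepatocytes with vehicle. In MEFs every point lies beyond 3 on its side of 0, while the hepatocyte points lie between -0.71 and 0.35.

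Hox genes encode the positional code of the body axis and limbs, and fibroblasts keep the code of the place they came from. The 2 populations differed in these genes. In the Hox B cluster 7 of 9 measured genes were higher in dKO cells and none was lower. The shares over all autosomal genes were 28.5% and 19.2%. Hoxb13 read 4.09, 3.55, 4.11 and 4.36 in WT and 8.69, 8.62, 8.69 and 8.53 in dKO cells (4.61 ± 0.13, adjusted p = 1.54e-23). Hoxb6 read 5.06, 4.64, 4.65 and 4.45 against 8.25, 8.19, 8.26 and 8.27 (3.54 ± 0.14), and Hoxb2 6.11, 5.90, 6.28 and 5.70 against 9.26, 9.20, 9.40 and 9.19 (3.26 ± 0.11). Hoxb5 was higher by 2.10, Hoxb4 by 1.36 and Hoxb3 by 0.63. Hoxb1 (-0.08) and Hoxb7 (0.14) did not pass the test.

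In the Hox A cluster 4 posterior genes were lower in dKO cells and 3 of the more anterior ones higher. Hoxa11, a gene of the limb zeugopod, read 9.57, 9.66, 9.69 and 9.62 in WT and 5.47, 5.36, 5.38 and 6.24 in dKO cells (-4.02 ± 0.16, adjusted p = 4.97e-20). Hoxa9 (-2.86), Hoxa10 (-1.94) and Hoxa13 (-1.21) were lower as well. Hoxa2, the most anterior Hox gene of the hindbrain and hyoid arch, read 4.90, 5.17, 4.79 and 4.90 against 7.56, 7.50, 7.82 and 7.73 (2.71 ± 0.16). Hoxa4 was higher by 0.77 but dim in both, at means of 4.25 and 5.02. Hoxa5 was slightly higher (0.24), and Hoxa7 (-0.07) did not pass. Hoxa3 did not pass on the probe set used (0.14), but its 4 probe sets ran from -0.07 to 1.49 and their mean passed at 0.44 (adjusted p = 1.63e-08, limma).

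The Hox C and D clusters were nearly level. Of 7 measured Hox C genes, Hoxc8 (0.18) and Hoxc5 (-0.26) passed by small amounts. Hoxc8 lost its call when any 1 array other than dKO array 1 was left out (0.17 to 0.20). It turned to -0.12 when measured from the median of the brighter genes of its chromosome, but Hoxc8 itself was dim (means of 2.95 in WT and 3.13 in dKO). Hoxc5 lost its call without WT array 1 (-0.23) or WT array 4 (-0.22), and 2 of its 3 probe sets went the other way. Of 8 measured Hox D genes 1 passed, Hoxd13, which marks the distal limb and genital bud. It read 10.38, 10.27, 10.44 and 10.38 in WT and 5.12, 4.55, 5.02 and 4.83 in dKO cells. The Hox D genes other than Hoxd13 had means of at most 6.36 in both genotypes, below the median level of all genes.

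**Figure D3:**
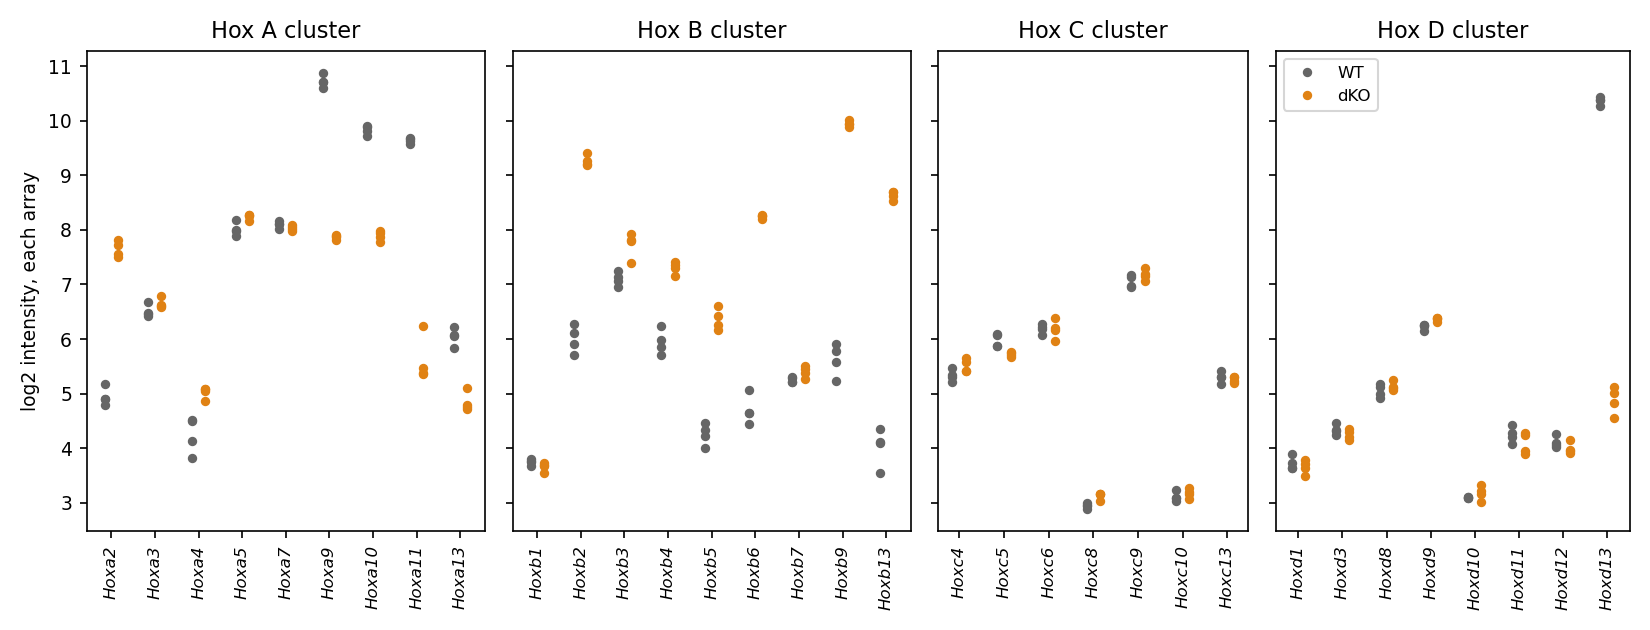
Log2 intensity of every measured Hox gene on each of the 4 WT and 4 dKO vehicle arrays, by cluster. Hoxb2, Hoxb6, Hoxb9 and Hoxb13 separate upward in dKO, Hoxa9, Hoxa10, Hoxa11 and Hoxd13 separate downward, and the Hox C genes lie together.

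Other regional transcription factors differed as well. Of 50 measured, 10 were higher and 20 lower, and 7 and 17 of these differed at least 1.5-fold. Among all autosomal genes 28.5% were higher and 19.2% lower, and 7.87% and 4.1% by at least 1.5-fold. Zic1, a zinc finger factor of dorsal neural tube and dermomyotome, read 3.09, 2.84, 2.94 and 2.75 in WT and 9.77, 9.49, 9.49 and 9.59 in dKO cells. In WT cells 1.99% of genes read lower, so the WT level may be background and the size of the difference is uncertain, and its 2 probe sets differed by 4.37 and 6.68. Lhx9, Irx3 and Osr1, which pattern limb and intermediate mesoderm, were lower by fitted values of -5.78, -4.05 and -3.55. Irx3 went from 9.12, 9.37, 9.05 and 9.02 to 5.66, 5.03, 5.07 and 4.62. Prrx1, the general limb mesenchyme factor, went from a mean of 11.47 to 8.37, so it was lower but remained above the median level. Its 6 probe sets differed by -3.10 to -0.12. Pax3, a dermomyotome and neural crest factor, was higher by 1.05.

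Sox2, a factor of neural progenitors and pluripotent cells, read 2.83, 2.68, 2.99 and 3.06 in WT and 9.12, 9.13, 9.39 and 9.29 in dKO cells (6.34 ± 0.12, adjusted p = 1.61e-28). Its WT level, too, was among the dimmest, with 1.88% of genes lower, so this size is uncertain in the same way. Fabp7, a fatty acid-binding protein of radial glia, was higher by 2.92, and Stmn2, a neuronal microtubule regulator, lower at a fitted -3.62. Of 13 neural and glial markers 5 were higher and 2 lower, and of 14 pluripotency and germ cell markers 1 was higher, Sox2 itself, and 3 lower. The shares of all autosomal genes were 28.5% higher and 19.2% lower. Klf4, a factor that fibroblasts also express, was the only 1 of the 14 pluripotency genes whose mean over the 8 arrays reached the median level of all genes. Pou5f1 and Nanog, the core pluripotency factors, were dim and level, at means of 5.15 in WT and 5.21 in dKO cells and of 4.15 in both.

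Expression of extracellular matrix was lower in dKO cells in most gene classes. Over 6 lists with 158 measured genes, 79 were lower and 32 higher, with a median of -0.11. Over all autosomal genes 19.2% were lower and 28.5% higher, and at the median level or brighter 29.8% and 42.5%. Elastic fibre and matricellular genes had the largest share of lowered genes of the 6, with 19 of 28 lower, 3 higher and a median of -0.40. Fbln2, fibulin 2 of elastic fibres, whose 2 probe sets differed by -4.46 and -0.58, read 10.28, 10.55, 10.50 and 10.42 in WT and 6.18, 5.86, 5.86 and 6.02 in dKO cells (-4.46 ± 0.08, adjusted p = 6.16e-29). Fbn2, fibrillin 2, and Fbln5 were lower at -3.50 and -2.97. The 2 Fbln5 probe sets differed by -2.97 and -0.44. Lox, the lysyl oxidase that cross-links collagen and elastin, went from 11.19, 11.25, 11.36 and 11.30 to 6.96, 7.12, 7.04 and 7.12, and its relative Loxl1 from a mean of 11.25 to 7.75. The 3 Lox probe sets differed by -4.21 to -0.65. Lox was one of the genes that went the opposite way in hepatocytes, where it read 7.66 and 7.68 in WT and 8.70 and 8.58 in dKO preparations (adjusted p = 0.204, limma).

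The small leucine-rich proteoglycan genes Ogn (-3.93), Omd (-3.73), Aspn (-3.44) and Fmod (-2.54) were lower in dKO cells. Of 30 proteases and inhibitors 15 were lower and 8 higher. The shares of all autosomal genes were 19.2% lower and 28.5% higher, and 29.8% and 42.5% at the median level or brighter. Mmp2, gelatinase A, was lower at -3.45, whereas Adamts9, a secreted metalloprotease, and Plat, tissue plasminogen activator, were higher by 2.60 and 2.08. The 3 Adamts9 probe sets differed by 0.39 to 3.72 and the 2 Plat probe sets by 0.49 and 2.08. Collagens were mixed, with 14 of 36 lower and 7 higher. Next to Col1a2 the fibril-forming Col3a1 was lower (-2.25), but Col7a1, the anchoring fibril collagen, and Col18a1, the source of endostatin, were higher by 2.19 and 2.11. Basement membrane genes were mixed too, with Smoc2 (-3.31) and Npnt (-1.68) lower and the laminin chains Lama2 (1.65) and Lama5 (1.32) higher.

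Cytoskeletal genes under SRF and myocardin factors were lower in 16 of 29 cases and higher in 4. Of these 29 genes 23 lay at the median level or brighter, where 29.8% of all genes were lower and 42.5% higher. Tagln, transgelin of contractile cells, read 12.32, 12.42, 12.35 and 12.33 in WT and 8.20, 8.22, 8.27 and 8.11 in dKO cells (-4.16 ± 0.05, adjusted p = 5.03e-34). Cnn1, calponin, was higher by 0.76 instead. Integrins moved little, from -1.01 for Itga6, a laminin receptor chain, to 0.89 for Itga7. Among cadherins and catenins, Fat4 (-2.18), Cdh3 (-1.88) and Cdh11 (-1.84) were lower and the desmosomal plakophilin Pkp2 higher (1.78).

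Of all autosomal genes 19.2% were lower and 28.5% higher. Of 17 fibroblast markers 11 were lower, 1 was higher and 5 did not pass, with a median of -1.02. Their mean level per array was 8.49 to 8.54 in dKO and 9.53 to 9.62 in WT cells. Vim, vimentin of mesenchymal cells, remained among the brightest genes in both, at 14.06, 14.10, 14.10 and 14.08 in WT and 13.92, 13.92, 13.92 and 13.92 in dKO cells. Postn, periostin, was lower at -2.33. In bulk RNA fewer cells of a type and less RNA per cell cannot be told apart. Markers of leukocytes, endothelium, hepatocytes and epithelium were dim on average over both genotypes. The mean level per array was 5.24 to 5.37 for 14 macrophage and leukocyte markers and 5.48 to 5.61 for 14 endothelial markers. It was 5.44 to 5.63 for 13 hepatocyte markers and 5.68 to 5.88 for 16 epithelial markers. Of the 57 genes of these 4 lists, 3 were higher and 4 lower. Still, 2 epithelial, 3 endothelial and 1 leukocyte marker reached the median level of all genes. The epithelial keratin gene Krt19 was bright, at 10.14 to 10.39 in WT and 9.16 to 9.31 in dKO cells, and lower in dKO (-0.97). Smooth muscle and pericyte markers were brighter, at 7.35 to 7.38 in dKO and 7.74 to 7.80 in WT cells (3 of 12 higher, 4 lower), and so were neural and glial markers, at 7.44 to 7.49 and 6.90 to 7.04. Their part in the other differences was not tested. Adipocyte markers were dim as well apart from Lpl, lipoprotein lipase, which read 4.80, 5.29, 4.89 and 4.80 in WT and 8.93, 8.93, 8.90 and 8.70 in dKO cells, while Pparg, the adipocyte master regulator, was lower (-0.55). Of 11 mesothelial and kidney epithelial markers 2 were higher and 1 lower. Lrp2 was higher by 5.81, from a dim mean of 3.97 in WT to 9.78 in dKO, and its 3 probe sets differed by 0.45 to 5.81. Msln was bright in both (means of 8.76 and 9.03) and higher by 0.27, and Emx2 was lower (-1.26).

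Several signalling lists held more lowered than raised genes, whereas of all autosomal genes 19.2% were lower and 28.5% higher. At the median level or brighter these shares were 29.8% and 42.5%. Of 39 TGF-β and BMP genes 19 were lower and 5 higher (median -0.18). Bmp4, a morphogen of ventral and limb mesoderm, read 12.08, 12.14, 12.15 and 12.08 in WT and 7.46, 7.41, 7.65 and 7.40 in dKO cells (-4.63 ± 0.10, adjusted p = 1.03e-26). Bmp2 (-2.74), the co-receptor Tgfbr3 (-2.68) and Tgfb3 (-2.09) were lower too. Of 45 Wnt genes 20 were lower and 8 higher, among them the receptor Fzd5 (-2.29) and the antagonist Dkk2 (-2.14). Crabp2, which carries retinoic acid to its receptor, went from a mean of 10.10 to 5.80. Gas1 and Ptch1, a co-receptor and the receptor of hedgehog ligands, were lower at -3.88 and -1.91. The 3 Gas1 probe sets differed by -4.01 to -0.67 and the 3 Ptch1 probe sets by -1.91 to -0.18.

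Growth factor genes were mixed, with 10 of 39 higher and 13 lower. Over all autosomal genes 28.5% were higher and 19.2% lower, and at the median level or brighter 42.5% and 29.8%. Besides Fgf7, its receptor gene Fgfr2 (-2.20) and Pdgfd (-2.13) were lower, and Vegfc, a lymphatic growth factor, was higher by 2.35. The 3 Fgfr2 probe sets differed by -2.20 to -0.55 and the 3 Pdgfd probe sets by -2.13 to -0.16. Igfbp6, which binds IGF-II, was higher by 3.05. Of 39 imprinted genes 13 were higher and 10 lower. Ndn, necdin, was higher by 3.17 on the probe set used, with 1 of 8 probe sets slightly the other way, Mest was higher by 1.75, and Grb10, a brake on insulin signalling, lower at -1.65.

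Antigen presentation genes were higher in dKO cells and had the highest median difference of the 60 lists after the Hox B cluster. MHC class I molecules show peptides that the immunoproteasome cuts and the TAP transporter loads, and NLRC5 is their transcriptional activator. Of 19 measured genes 14 were higher in dKO and 1 was lower, with a median of 1.20 against 0.00 over all genes. Over all autosomal genes 28.5% were higher and 19.2% lower, and 42.5% and 29.8% at the median level or brighter. The class I heavy chain gene H2-K1 read 10.48, 10.49, 10.55 and 10.43 in WT and 12.73, 12.82, 12.84 and 12.80 in dKO cells (2.31 ± 0.03, adjusted p = 8.05e-33). H2-D1 read 11.03, 11.07, 11.08 and 11.02 against 12.62, 12.62, 12.63 and 12.52 (1.55 ± 0.03). Class I genes are close copies of one another, so a probe set may read several of them, and the 9 H2-D1 probe sets differed by -0.08 to 1.61. B2m, the common light chain, was higher by 0.59 from 12.82 to 12.86 in WT to 13.42 to 13.45 in dKO.

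The processing machinery was higher too. Psmb8, an immunoproteasome catalytic subunit, read 6.44, 6.24, 6.48 and 6.19 in WT and 9.79, 10.01, 10.00 and 9.94 in dKO cells. Psmb9 was higher by 1.79, the peptide transporter chains Tap2 by 1.96 and Tap1 by 1.29 (its 4 probe sets ranging from -0.06 to 1.29), the loading factor Tapbp by 1.18 and Nlrc5 by 2.57, the last from a dim 4.07 to 4.54 in WT to 6.71 to 6.91. The class II gene H2-Ab1 (2.17) and the invariant chain gene Cd74 (1.20) were higher from low levels. H2-T24 was the exception (-1.18). In hepatocytes H2-K1 stood at 14.01 and 14.13 in WT and 14.08 and 13.95 in dKO preparations, and Psmb8 differed by 0.01.

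To show the regulatory sequence of genes that moved together, the 250 bases before the start of H2-K1, H2-D1 and Tap1 are printed from RefSeq (build GRCm38.p6), 5′ to 3′ on the strand of the gene. Capitals mark matches to GAANNGAAA, a pattern close to the interferon-stimulated response element, searched on both strands. A form with another A before the NN is not matched by it. The B2m and Gbp2 windows hold this longer form and were counted as having no match, so the counts below may miss elements.
H2-K1, chr17:34000348-34000597, minus strand: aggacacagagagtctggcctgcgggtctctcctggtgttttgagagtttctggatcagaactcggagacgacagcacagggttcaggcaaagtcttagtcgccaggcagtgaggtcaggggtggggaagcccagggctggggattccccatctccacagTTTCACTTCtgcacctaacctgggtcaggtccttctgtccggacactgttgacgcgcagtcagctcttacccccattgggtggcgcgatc
H2-D1, chr17:35262844-35263093, plus strand: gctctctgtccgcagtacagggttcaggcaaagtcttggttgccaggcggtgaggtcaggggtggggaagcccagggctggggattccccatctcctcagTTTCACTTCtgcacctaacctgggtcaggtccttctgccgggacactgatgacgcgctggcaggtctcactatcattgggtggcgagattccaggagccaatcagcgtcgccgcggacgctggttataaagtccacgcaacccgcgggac
Tap1, chr17:34187306-34187555, plus strand: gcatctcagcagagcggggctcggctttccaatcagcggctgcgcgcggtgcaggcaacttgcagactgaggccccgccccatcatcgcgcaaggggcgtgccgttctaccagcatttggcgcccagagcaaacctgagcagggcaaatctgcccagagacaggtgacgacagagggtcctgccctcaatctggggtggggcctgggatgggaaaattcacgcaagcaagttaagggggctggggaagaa

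The H2-K1 and H2-D1 windows each hold 1 match, and the Tap1 window holds none. Tap1 and Psmb9 are read in opposite directions from starts 226 bases apart, so most of this stretch lies between the 2 starts. Of 13 antigen presentation genes with a listed promoter, 4 held the motif (H2-D1, H2-K1, H2-M3 and H2-Q10), 30.8%. Among 26 interferon-stimulated genes 4 did, 15.4%, and of all 32851 promoters of the same length 6.31% did. These shares are not directly comparable. A gene counted if any of its starts had a match, so genes with several starts had more chances than a single promoter. The 4 antigen presentation genes are class I genes, which are close copies, so their matches are not independent. A match describes letters and not a bound site.

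Interferon-stimulated genes were mixed. Of 35 measured, 13 were higher and 7 lower, with a median of 0.00. The shares over all autosomal genes were 28.5% higher and 19.2% lower. Gbp2, an interferon-γ-induced GTPase, read 5.01, 4.92, 5.10 and 5.00 in WT and 7.23, 7.34, 7.32 and 7.37 in dKO cells. Xaf1 was higher by 1.72 on the probe set used and level on its other one (0.03). Ifit1, a type I interferon effector that binds viral RNA, was lower (-1.36). Among chemokines and NF-κB feedback genes 13 of 35 were higher and 7 lower. Cxcl5, a neutrophil chemokine, read 7.87, 7.86, 7.56 and 7.70 in WT and 3.24, 3.16, 3.20 and 3.22 in dKO cells, while Cx3cl1, fractalkine, was higher by 1.66 and Cxcl12 lower (-1.20).

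Lysosomal hydrolases and membrane proteins were higher in 20 of 42 cases and lower in 12, with a median of 0.09. At the median level or brighter, where 33 of the 42 lay, 42.5% of all genes were higher and 29.8% lower. Ctsz, cathepsin Z, is the largest fall of all named genes, but other members rose. Manba, β-mannosidase, read 5.97, 5.68, 5.70 and 5.69 in WT and 8.07, 8.12, 8.02 and 8.03 in dKO cells, and Cln3, a lysosomal membrane protein, was higher by 2.55. The 2 Cln3 probe sets differed by 0.53 and 2.55. Ctsf was higher by 2.35 on 1 of its 2 probe sets and level on the other (-0.17). Autophagy genes were higher in 14 of 34 cases (41.2%) and lower in 10 (29.4%), near the 42.5% and 29.8% of all genes at the median level or brighter. They ran from -0.52 to 1.08. The receptors Sqstm1 (0.66) and Calcoco1 (1.08) and the lipid transfer protein Atg2a (0.75) were higher. The other Calcoco1 probe set was level (0.06).

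Over 8 lists of metabolic genes with 241 measured, 118 were higher (49%) and 47 lower (19.5%), with a median of 0.10. Over all autosomal genes at the median level or brighter, 42.5% were higher and 29.8% lower, with a median of 0.05. Respiratory chain subunits differed in small steps, with 28 of 44 higher, 7 lower and a median of 0.10. Cox6b1 (0.66), Ndufb3 (0.64) and Sdhc (0.63) are examples, and Cox7a1, the heart and muscle isoform of a complex IV subunit, was higher by 1.90 from a dim mean of 4.17. Of the PGC-1 coactivators Ppargc1b was higher (1.17) and Ppargc1a lower (-1.03, at means of 5.37 and 4.34).

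Of 39 genes of fatty acid oxidation and lipid droplets 20 were higher and 8 lower, from -0.94 to 1.92, and of 25 sterol genes 15 were higher and 2 lower. Among all genes at the median level or brighter, where 26 of the 39 and 21 of the 25 lay, 42.5% were higher and 29.8% lower. Plin2, the lipid droplet coat protein, read 10.68, 10.68, 10.72 and 10.66 in WT and 12.36, 12.34, 12.33 and 12.31 in dKO cells (1.65 ± 0.03, adjusted p = 3.04e-30). The fatty acid transporter gene Slc27a1 (1.92), Pdk4, which spares glucose (1.44), Cpt1a, the gate to mitochondrial fatty acid oxidation (1.05), Apoe (2.20) and Abcg1 (1.06) were higher. Slc2a3, the glucose transporter GLUT3, and the phosphofructokinase genes Pfkp and Pfkm were higher by 1.78, 1.00 and 0.83. Other probe sets of some of these genes moved less. The differences ran from 0.05 to 1.78 for the 4 of Slc2a3, 0.23 to 1.00 for the 3 of Pfkp and 0.08 to 1.06 for the 2 of Abcg1. Fatty acid and triglyceride synthesis genes stayed within -0.31 to 0.61. The glutathione transferase Gsta4 read 7.21, 7.35, 7.48 and 7.36 in WT and 9.23, 9.22, 9.30 and 9.25 in dKO cells, and 18 of 36 NRF2 and glutathione genes were higher against 5 lower.

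Adssl1, an adenylosuccinate synthase on the path to AMP, was higher by 1.98. The other purine genes, including those that handle AICAR, stayed within -0.28 and 0.30, and Adk, adenosine kinase, which phosphorylates AICAR to its active form, was lower at -0.28 on the probe set used while 1 of its 6 probe sets went the other way.

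Growth control genes included some of the most level and some of the most divergent values. Cdkn2a, which encodes p16 and p19ARF, was bright in both and did not differ by the test, at 12.18, 12.13, 12.07 and 12.03 in WT and 12.14, 12.16, 12.16 and 12.08 in dKO cells (0.03 ± 0.03, adjusted p = 0.436). Mdm2 was level too (-0.02 ± 0.03, adjusted p = 0.742). Of the 23 genes of the p53 pathway and the Cdkn2a locus 8 were higher, 6 lower and 9 not called. Cdkn1a, the p21 cell cycle inhibitor, read 8.97, 9.09, 8.99 and 9.03 against 10.17, 10.06, 10.27 and 10.18, and Perp, an adhesion protein and p53 target, 9.29, 9.11, 9.04 and 9.15 against 5.04, 5.38, 5.17 and 5.40. Of 37 cell cycle and replication genes 17 were higher and 11 lower, within -0.62 (Ccnd2) and 1.06 (E2f2). At the median level or brighter, where 36 of the 37 lay, 42.5% of all genes were higher and 29.8% lower.

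Immediate early genes and their feedback genes were higher in 15 of 27 cases and lower in 7. At the median level or brighter, where 23 of the 27 lay, 42.5% of all genes were higher and 29.8% lower. Dusp4, a phosphatase that dampens ERK signalling, read 5.66, 5.46, 5.21 and 5.48 in WT and 8.18, 8.23, 8.17 and 8.06 in dKO cells. Egr2 read 5.32 to 5.60 against 7.77 to 8.03. These differences were smaller under AICAR. Under AICAR the genotype difference of Dusp4 was 0.53 and that of Egr2 0.89, changes of -2.18 (interaction adjusted p = 5.85e-13) and -1.58 (interaction adjusted p = 6.95e-11, limma). The difference of Cdkn1a was smaller likewise, 0.27 in place of 1.15 (interaction adjusted p = 1.52e-09), and so was that of Cxcl5, -2.01 in place of -4.54 (interaction adjusted p = 1.02e-11). Under 991 the differences were 2.26 for Dusp4, 2.22 for Egr2 and 1.06 for Cdkn1a. None of these passed as an interaction (adjusted p = 0.0616, 0.223 and 0.564, limma). Cxcl5 did, at -3.61 under 991 (interaction adjusted p = 0.00245, limma). Of the 2082 genes with at least 1.5-fold differences, 491 (23.6%) had a difference under AICAR that was not the one under vehicle, and 202 (9.7%) under 991, against 12.2% and 5.33% of all genes. The vehicle arrays enter both sides of these interactions.

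**Figure D4:**
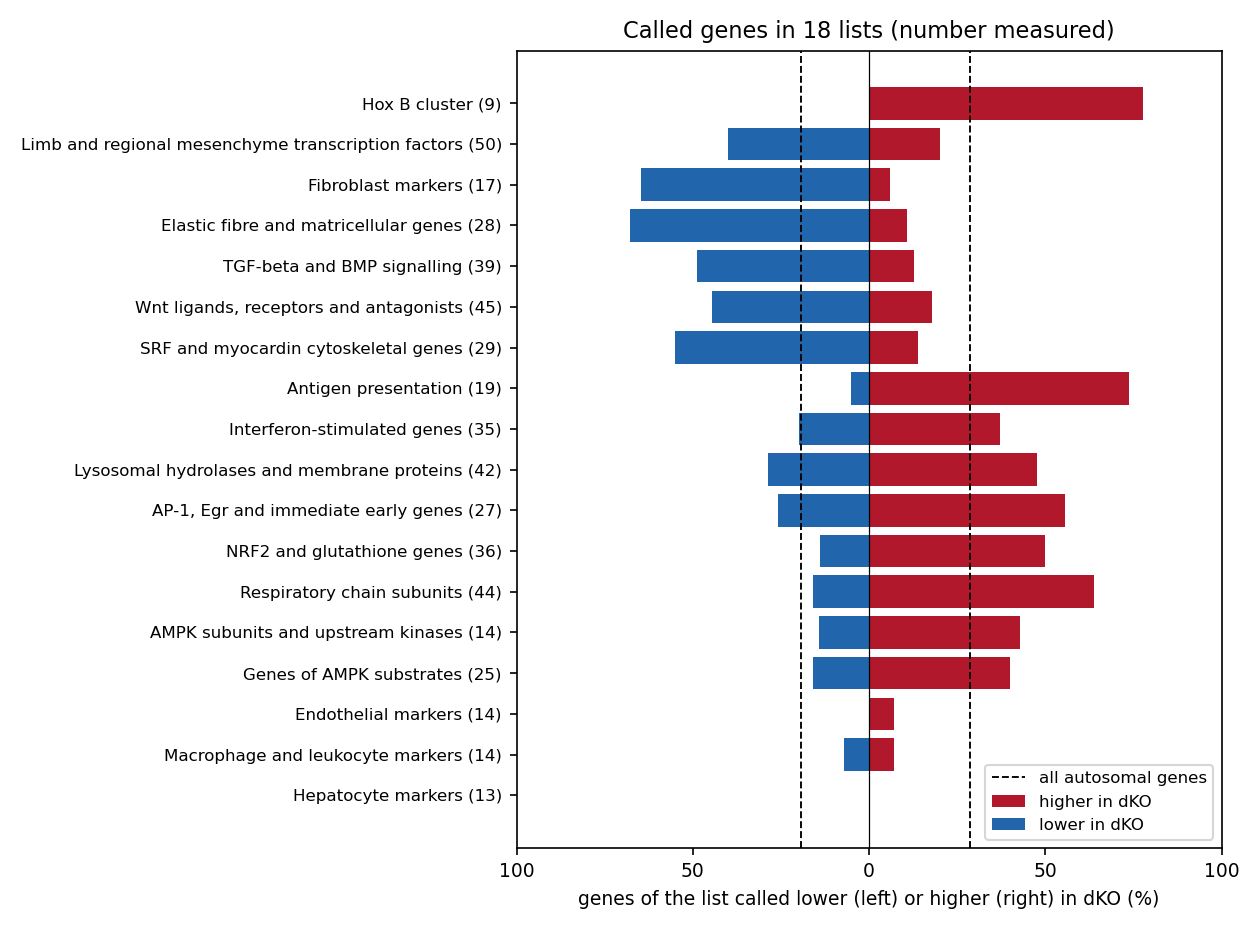
Share of the measured genes of 18 gene lists called lower (bars to the left) or higher (bars to the right) in dKO MEFs under vehicle, with the shares over all autosomal genes (19.2% and 28.5%) as dashed lines. For lists of mostly bright genes the shares to compare are 29.8% lower and 42.5% higher, which are not drawn. The lists drawn were picked after their values were seen; the Hox B and antigen presentation bars extend far to the right, and the fibroblast marker and elastic fibre bars far to the left.

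The genotype difference also ran by chromosome. Among the 8806 autosomal genes no dimmer than the median gene, the difference had a median of 0.05. On chromosome 15 it was 0.30, with 293 of 369 genes higher and 34 lower. Chromosome 19 had a median of 0.28 (258 of 333 higher, 26 lower) and chromosome 1 a median of 0.25 (354 of 511 higher, 53 lower). On chromosome 18 the median was -0.30, with 165 of 221 genes lower and 26 higher, and on chromosome 14 it was -0.26, with 210 of 302 lower and 41 higher. These 5 chromosomes were the ones past 0.2 in size. Chromosomes 13 (-0.18), 16 (0.15) and 9 (-0.13) came next, and the other 11 lay between -0.09 and 0.11.

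The shift was spread over the length of each of these chromosomes and over arrays. With the genes of chromosomes 1, 15 and 19 cut into 3 equal runs along each chromosome, the 9 medians lay between 0.21 and 0.43, and the 6 of chromosomes 14 and 18 between -0.36 and -0.20. Outside these chromosomes the largest median of a run was 0.35, in the first run of chromosome 7 (136 of 211 genes higher, 25 lower). The other runs of chromosome 7 had medians of 0.06 and 0.03, and the whole chromosome 0.09. Relative to the mean of all 8 arrays, the chromosome 15 median was 0.15 to 0.18 on the dKO arrays and -0.20 to -0.11 on the WT arrays, and the chromosome 18 median -0.16 to -0.13 and 0.12 to 0.20, without overlap. The 991 arrays gave medians of 0.18 to 0.27 on the 3 raised and -0.34 to -0.32 on the 2 lowered chromosomes, and the AICAR arrays 0.23 to 0.28 and -0.24 on both.

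Between dKO and WT hepatocytes, the median differences of all 19 autosomes lay between 0.00 and 0.02. The pattern was noticed after the values were seen, and the copy number of the chromosomes in these cells was not measured. It matters for small differences: Prkag1 lies on chromosome 15, where 0.40 compares with the chromosome median of 0.30, Cab39l on chromosome 14 and Prkag3 on chromosome 1. Prkaa1 also lies on chromosome 15, and its difference from the chromosome median was -0.39 (adjusted p = 0.00173 from the limma standard errors). With every gene measured from this median of its own chromosome, 4583 genes were called higher and 4903 lower in place of 4964 and 3337. Of the genes called before this step, 1878 differed from that median by at least 1.5-fold, of which 1692 are among the 2082. The median came from genes no dimmer than the median gene but was taken from dim genes too. Over all genes of chromosomes 15 and 18 the medians were 0.11 and -0.13, in place of 0.30 and -0.30. Dim genes may thus be overcorrected, and the p-values treat the chromosome median as fixed.

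**Figure D5:**
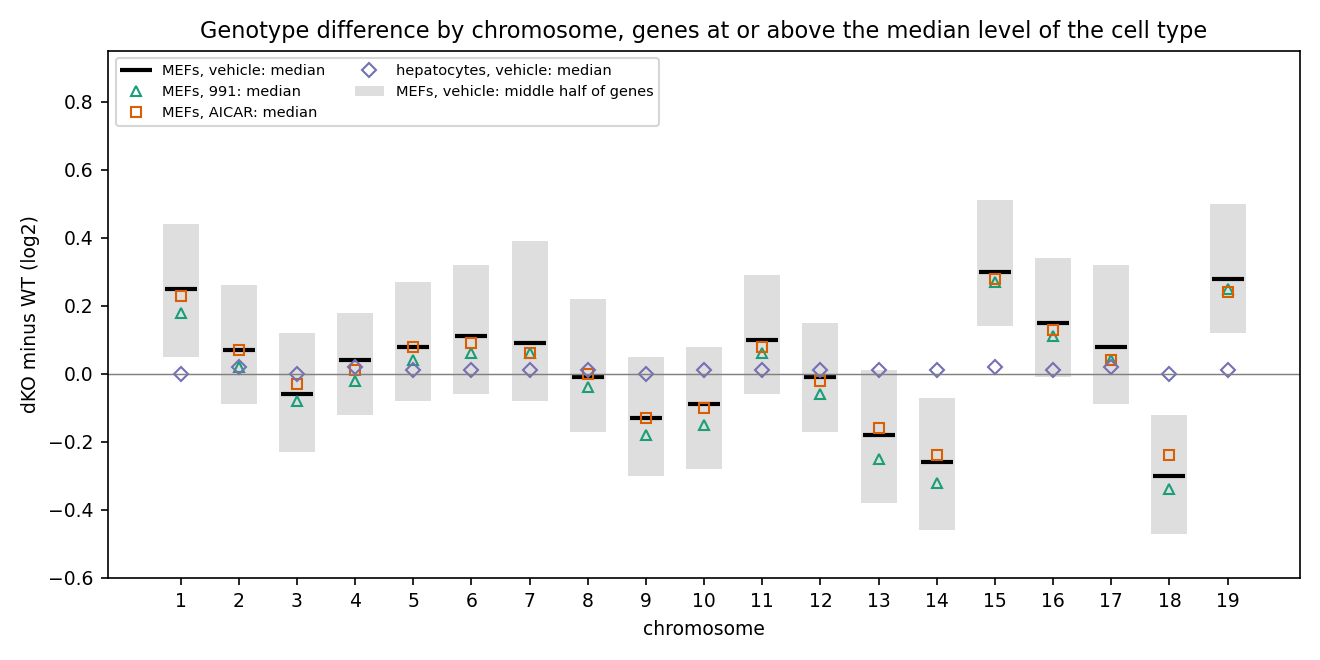
Median genotype difference (dKO minus WT, log2) by autosome for genes at or above the median level of the cell type, with the range from the lower to the upper quartile under vehicle as grey bars. Chromosomes 1, 15 and 19 sit above 0 and 14 and 18 below 0 in all 3 sets of MEF arrays, and the hepatocyte medians stay between 0.00 and 0.02.

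The genes next to the deleted ones were looked at separately. Of the 20 measured genes nearest to Prkaa1 on chromosome 15, 50% were called, 5 higher and 5 lower, and of the 20 nearest to Prkaa2 on chromosome 4, 20% were called, all 4 lower, against 47.7% of all genes. At least 1.5-fold differences were seen for Ghr, the growth hormone receptor (-1.16), and Osmr, the oncostatin M receptor (-1.59), near Prkaa1, and for Plpp3, a lipid phosphate phosphatase (-2.09), next to Prkaa2. Hepatocytes differed by 0.11, -0.14 and -0.01 at these genes.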

How the data were processed

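The members and gene lists were chosen with earlier results of these data known. The authors deposited log2 intensities per probe set, made with RMA and Partek per the submitters' processing notes. The sources used here give neither versions nor whether both cell types were normalized together. Of 45101 probe sets 64 controls were left out, 34945 had 1 gene symbol in GEO's platform annotation, 932 several and 9160 none. A gene with several probe sets was represented by the one brightest on average in MEFs, which gave 18194 genes. Other probe sets of a gene can differ less, and their ranges are given for some genes only. Of these 18032 were matched to RefSeq by Entrez identifier. Genes on X (617), on Y (9) or without a usable chromosome (164) were fitted but are not described.

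A model with 1 mean per genotype and treatment was fitted to the 23 MEF arrays (17 residual degrees of freedom) in limma 3.58.1 under R 4.3.3, with eBayes and an intensity trend and Benjamini-Hochberg adjustment. The script was tested on simulated data. Hepatocyte technical replicates were averaged to 2 preparations per genotype. The number of arrays limits the precision. Tables were made with Python 3.11.15 and pandas 2.3.3. Replicate numbers did not pair the arrays: deviations of same-numbered arrays correlated at r = -0.134 to 0.029 across genes.

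Named genes are Prkaa1, Prkaa2, the 12 largest rises and 12 largest falls (predicted genes left out), up to 4 called members with the largest difference in each of 60 lists, all Hox genes, and called neighbours of the targeted genes with at least 1.5-fold. Cdkn2a, Mdm2, Vim, Pou5f1, Nanog, H2-D1, H2-M3, H2-T24, B2m, Cd74, Tap1, Tap2, Tapbp and Psmb9 were chosen after their values were seen. Alternatives covered probe set choice, level filter, intensity trend, quantile normalization, replicate block, the vehicle arrays alone and each array left out.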

Additional observations from a re-analysis of the deposited data

Results flagged for a closer look

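Among 384 sets of 4 vehicle arrays (1 named gene in 1 genotype each), 14 held an array whose gap to the others passed Dixon's limit, where chance gives about 1 in 20 sets, or about 19. In WT cells these were the highest Manba value (5.97, median 5.69) and the lowest Omd value (8.46, median 8.74). In dKO cells the highest were Hoxa11 at 6.24, against a median of 5.43, and Sfrp2 at 6.59, against 6.34. The lowest in dKO were Rcan2 (4.56), H2-D1 (12.52), Hdac5 (9.23), Hoxa4 (4.86), Hoxa5 (8.16), Hoxc8 (3.04), Lpl (8.70), Gnl3 (11.45), Sqstm1 (11.95) and Vim (13.92).

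For 33 of 192 named genes (17.2%) all dKO arrays lay on one side of WT in MEFs and both dKO preparations on the other side in hepatocytes, against 15.5% of all genes called in MEFs, so the share is near the background. Whether the cell types differ was not tested, and no hepatocyte difference passed the adjusted threshold. The largest were Lox, at 0.97 in hepatocytes against -4.21 in MEFs, and Rragd, at -0.89 against 2.84. The other genes that were lower in dKO MEFs had hepatocyte differences of 0.41 for Omd, 0.33 for Npnt, 0.30 for Ifit1, 0.25 for Sox9, 0.24 for Prrx1, 0.23 for Tgfbr3, 0.19 for Foxo1, 0.18 for Ppargc1a, 0.14 for Fat4, Fmod and Nuak1, 0.13 for Serpinb2, 0.11 for Ghr and Rspo2, 0.10 for Hoxa9, 0.09 for Gas1 and 0.03 for Cxcl5. Those that were higher in dKO MEFs had hepatocyte differences of -0.38 for Nlrc5, -0.36 for Cln3, -0.34 for H2-Ab1, -0.25 for Chac1, -0.21 for Plat, -0.20 for Plekha2, -0.13 for Adssl1, -0.12 for Pax3, -0.11 for Calcoco1, -0.10 for Dusp4 and Zfp36l1, -0.08 for Sqstm1, -0.06 for Hoxa2 and -0.02 for Col7a1.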

How the results depend on the processing

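Of 192 named genes 184 kept their direction and call under every alternative run. The exceptions were Adk, Hoxa3, Hoxa5, Hoxa7, Hoxb7, Hoxc5, Hoxc8 and Prkaa1. Measured from the median of the brighter genes of the chromosome, which was chosen after seeing the data, Hoxc8 changed sign (-0.12). Adk (-0.02) and Hoxa5 (0.12) lost their calls, and 9486 genes were called. That median was taken from dim genes too, Hoxc8 among them. The 8301 calls under vehicle became 8834 with quantile normalization (50.5% of them higher in dKO, against 59.8%), 6549 among genes above the median level, where fewer were tested, 8253 with averaged probe sets, 8246 without the trend, 8576 with the vehicle arrays alone, 8305 with autosomal genes alone, and 2082 with the 1.5-fold limit. Leaving out 1 array gave 7908 to 8258 calls under vehicle, 7645 to 8952 with 991 and 7759 to 8081 with AICAR. In hepatocytes it gave 3 to 14 in place of 0. With the replicate number as a block 8366 genes were called, and no named gene gained or lost its call.

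Each genotype is 1 population of MEFs, so neither the tests nor the alternatives bear on variation between lines.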

Other observations

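Genes of the integrated stress response were higher in dKO MEFs in 24 of 32 cases and lower in 1. ATF4 drives them when amino acids run short or protein folding fails. Of all autosomal genes at the median level or brighter, where 29 of the 32 lay, 42.5% were higher and 29.8% lower (median 0.05). The median of the stress response genes was 0.28. The largest were Cebpg (0.82), a partner of ATF4, and Chac1 (0.79), which degrades glutathione. Genes of ER folding went both ways, with 9 of 25 higher and 8 lower, among them the ER stress sensor Atf6 (0.77) and the co-chaperone Dnajc3 (-0.66). Hypoxia genes were lower in 14 of 24 cases and higher in 7. At the median level or brighter, where 19 of the 24 lay, 29.8% of all genes were lower and 42.5% higher. Adrenomedullin, Adm (-1.76), and the carbonic anhydrase Car12 (-1.16, with 3 probe sets from -1.16 to -0.07) were lower. Epas1, which encodes HIF-2α, was higher by 1.32, but its 2 probe sets differed by 0.01 and 1.32. YAP target and Hippo genes, 21 of 23 at the median level or brighter, were lower in 13 cases and higher in 5. The targets Ankrd1 (0.89) and Axl (0.81) and the kinase Stk4 (0.83) were among the latter, and the kinase Lats2 (-0.76) among the former.

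Ribosome biogenesis genes stayed within -0.42 (Gnl3) and 0.56 (Bop1), with 10 of 28 higher and 7 lower. All 28 lay at the median level or brighter, where 42.5% of all genes were higher and 29.8% lower. Over all autosomal genes the shares were 28.5% and 19.2%. Of 18 clock genes 7 were higher and 2 lower, with Cry1 at -0.92 and Per2 at 0.58. Of 20 complement, coagulation and serpin genes 9 were higher and 3 lower, with Serpinb2 at -2.08 and Tfpi2 at 1.86. The insulin and IGF axis had 8 of 22 genes in each direction, with Foxo1, a transcription factor that insulin restrains, at -0.67. The 4 Foxo1 probe sets differed by -0.67 to -0.01. Of 12 chondrocyte and osteoblast markers 3 were lower and 1 higher, and the cartilage genes Col2a1 (-1.61) and Sox9 (-1.13) were the largest. The 3 Sox9 probe sets differed by -1.34 to -0.19.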
